A study of Oncorhynchus mykiss with 8 samples.

Results

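Expression ratios of 5 class I antigen processing genes were measured in liver and muscle of small and large rainbow trout: the immunoproteasome subunits psmb8b and psmb9a, the peptide transporters tap1 and tap2b, and b2m, which encodes beta-2-microglobulin. They were chosen by the gene symbol of the platform annotation, in any case, and each had 1 probe, which gives 5 of 43,603 probes on the array. The annotation gave a symbol to only 221 probes. Large and small fish alike were offspring of neomales, that is, of genetic females reversed to functional males and used as sires, and belonged to the Lyndon strain, which was fed without restriction. Each array set a pool of 5 large fish against a pool of 5 small fish of 1 tissue, with one pool labelled with Alexa Fluor 555 and the other with Alexa Fluor 647. There were 8 arrays, 4 per tissue, and each pool pair was read as hybridised once in each dye orientation, so that a tissue had 2 pool pairs. An array whose large fish carried the 555 dye is called a 555 array below, and one whose large fish carried the 647 dye a 647 array. Pools average fish before labelling, so the spread between individual fish was not measured, and the labels do not say whether the numbered pools were independent sets of fish or whether liver and muscle came from the same fish. P-values then measure only the spread between these pool pairs. For a probe with values in both tissues that spread is shared between them, and it is drawn towards that of all probes.

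Cells show fragments of their own proteins, and of viruses that infect them, on class I histocompatibility molecules. The immunoproteasome, in which psmb8 and psmb9 replace standard catalytic subunits, cuts proteins into peptides. A transporter built from tap1 and tap2 moves the peptides into the endoplasmic reticulum, tapasin (tapbp) holds the empty class I molecule next to it, and beta-2-microglobulin is the light chain without which the molecule does not reach the cell surface. In mammals interferon gamma induces these genes together. Salmonid genomes kept many gene copies from an ancestral genome duplication, so a probe may also bind the transcripts of a near-identical copy, and each value below is that of a probe.

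A value is the log2 ratio of both channels as deposited, where 1 unit is a doubling. The numerator is not given in the sources used here, nor is it given whether arrays with exchanged dyes had already been turned. Every member is therefore given under both readings. Turned values change the sign of the 647 arrays before the arrays of a pool pair are averaged, and values as deposited change no sign. On a single array a positive turned value has the direction of a positive deposited value on the 555 arrays, which are titled large against small. A turned pool pair is positive where the deposited value of its 555 array exceeds that of its 647 array. Whether a positive turned value stands for more transcript in large or in small fish is unknown. On every array 2 to the power of the deposited value fell on a ratio of 3 decimals for between 99.2 and 99.8% of mid-sized values, against 10.6 to 14.9% with the sign changed. By this, no array had its sign changed after its ratio was rounded. A ratio inverted before rounding would look the same, so both readings remain. Across probes the liver arrays had standard deviations of 0.55 to 0.92 and the muscle arrays of 0.32 to 0.33, and the 647 liver array of replicate 2 was the widest. Such an array gives no absolute level, and in bulk tissue fewer cells of a type cannot be told apart from less RNA per cell. The markers fixed for leukocytes, cells rich in class I molecules, had 0 of 16 symbols on the annotation, so their part in these ratios was not tested.

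**Figure D1:**
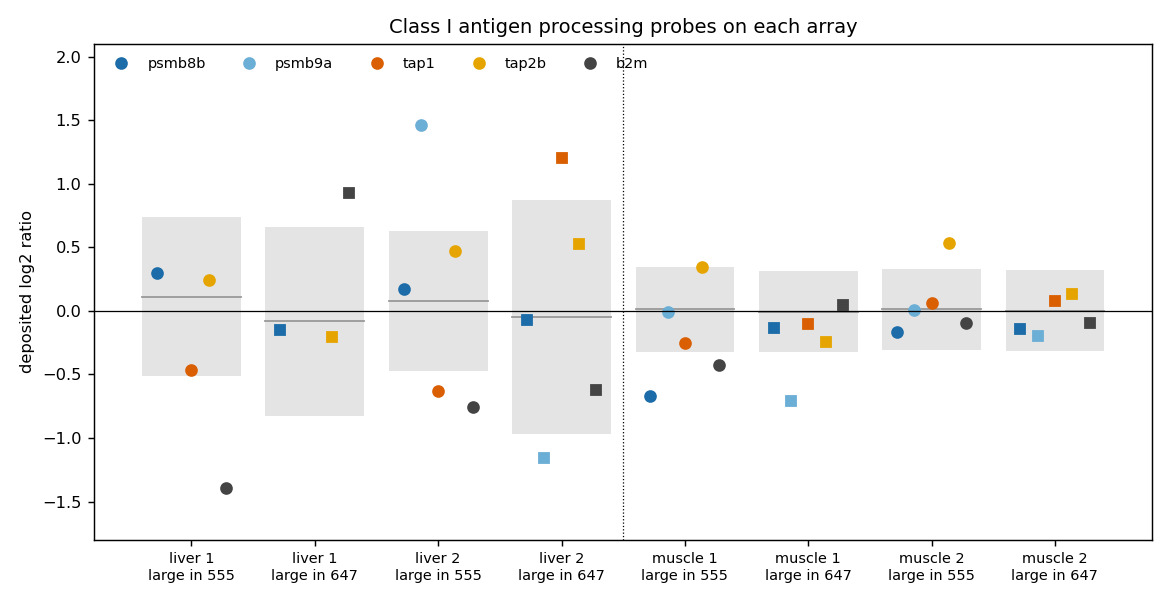
Deposited log2 ratio of the 5 probes on each of the 8 arrays, with circles for 555 arrays and squares for 647 arrays. Grey bars span 1 standard deviation of all probes on each side of the array's median, which is the grey line. Values of b2m reach -1.39 and 0.92 in liver replicate 1, psmb9a has no value there, and all muscle values lie between -0.71 and 0.54.

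All 5 genes were tested in muscle. Only psmb8b, tap2b and b2m, with values on all liver arrays, were also tested in liver and between the tissues. None passed an adjusted p of 0.05 in these tests under either reading, and neither did any other probe (0% of those tested in limma). At an unadjusted p of 0.05 the members' count was 0 of 3 in liver and 0 of 5 in muscle with the signs turned, where 20.4% and 4.53% of all probes had such a p. As deposited it was 1 of 3 in liver and 0 of 5 in muscle, against 9.97% and 1.63% of all probes. Of the liver minus muscle differences 0 of 3 had such a p under either reading, against 7.7% of all probes turned and 4.24% as deposited. The gene with an unadjusted p under 0.05 was b2m in liver, and its values come first.

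The probe of b2m had deposited values of -1.39 and -0.75 on the 555 liver arrays and of 0.92 and -0.62 on the 647 arrays, in the order of replicates 1 and 2 here and below. The dye exchange thus turned the sign in replicate 1 and left it in place in replicate 2. In muscle the same probe had -0.42 and -0.10 on the 555 arrays and 0.05 and -0.09 on the 647 arrays. The muscle values of replicate 2 lay within the spread of all probes on those arrays, where 29.9% and 31.8% of probes were lower.

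Turned, the b2m pool pairs were -1.16 and -0.07 in liver and -0.24 and -0.00075 in muscle. The liver mean was -0.61 ± 0.77 (SD, n = 2 pool pairs), which is 1.53-fold, with a 95% interval of -1.39 to 0.17 and an adjusted p of 0.301 in limma. The deviation therefore came from 1 liver pool pair. In muscle the mean was -0.12 ± 0.17, with an adjusted p of 1. As deposited the pool pairs were -0.23 and -0.69 in liver and -0.19 and -0.09 in muscle. The liver mean was -0.46 ± 0.32, with an interval of -0.86 to -0.07, an unadjusted p of 0.0311 and an adjusted p of 0.474 in limma. All 4 pool pairs of b2m were thus negative under both readings, but the turned pair of muscle replicate 2, at -0.00075, was practically 0. Of the 3 members with complete values only b2m had 1 sign in all 4 pool pairs under both, against 2.63% of all probes. The pattern was found in these same values, so that share does not test it. Such a pattern arises where the 555 array has the larger deviation of each pair. This holds for b2m, but in muscle replicate 2 the arrays were nearly equal (-0.0954 and -0.0939), so the sign there carries no weight. That both readings give the same sign therefore rests on the 555 arrays.

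Red blood cells of trout have nuclei, and the globin gene hba, the only one of 4 red blood cell marker symbols on the annotation, had 3 probes. As deposited, 2 of these ran like b2m in liver, with pool pairs of -0.60 and -0.74 and of -0.39 and -0.70, while the third had 0.04 and 0.09. Turned, the first 2 gave -0.85 and 0.13 and -0.29 and 0.43 in liver, and the third 0.20 and 0.21. In muscle the first 2 had 0.25 and -0.51 and 0.30 and -0.50 as deposited, and -0.46 and -0.23 and -0.30 and -0.16 turned. The third had 0.14 and 0.05 as deposited and 0.12 and 0.37 turned. The transcripts of plasma proteins in liver, at 5 probes, had turned means from -0.99 to 0.71, 3 of them negative, and means from -0.63 to 0.25 as deposited, 4 of them negative. In muscle all 5 means were negative, from -0.31 to -0.11 turned and from -0.40 to -0.13 as deposited. Each of these probes was, as deposited, positive in muscle replicate 1 and negative in replicate 2. The part of blood or of plasma protein transcripts in the b2m ratio was not tested.

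The fits without a liver replicate were run with signs turned only, and the call of b2m differed between them. As deposited, b2m had -0.23 in replicate 1 and -0.69 in replicate 2, which holds the widest array. Without that replicate the turned value was -1.16 with an adjusted p of 0.00494 in limma, in a fit that passed 18.8% of all liver probes. Without replicate 1 it was -0.07, and 0 of 3 members passed, against 17.4% of all liver probes. With the 555 array alone standing for replicate 2, an alternative chosen after seeing the data, the mean was -0.96 with an adjusted p of 0.0439, and 5.09% of all probes passed. A dye effect is not averaged out there. For the liver minus muscle difference b2m passed without liver replicate 2 (-1.04, adjusted p 0.0205 in limma), where 9.69% of all probes passed, and had 0.05 without liver replicate 1. With 1 liver pool pair the spread is taken from muscle, and these shares of passing probes exceed the 0% of the complete fit.

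**Figure D2:**
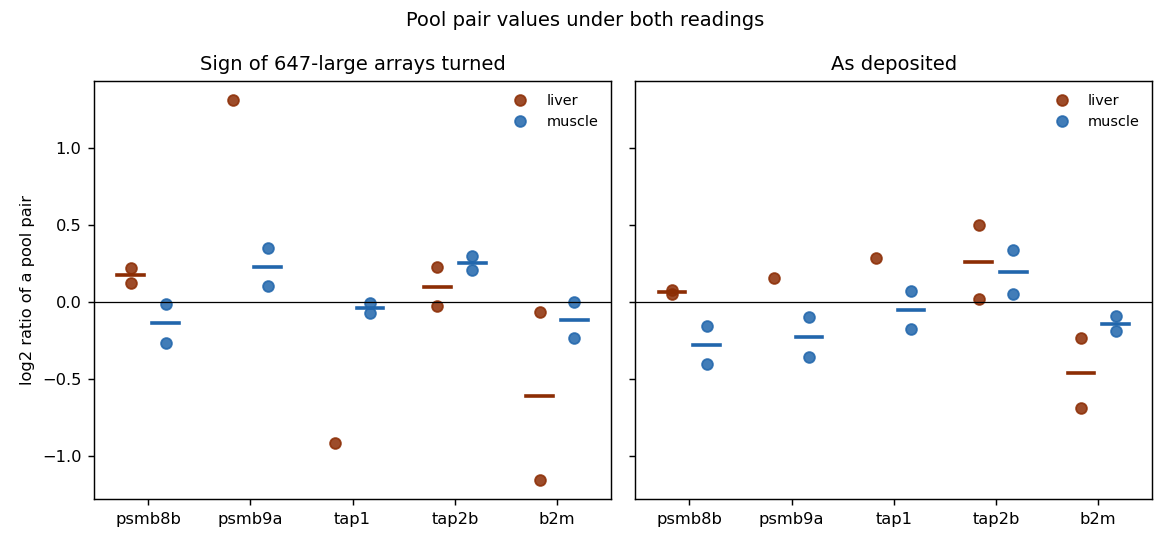
Log2 ratio of each pool pair (points) and the mean of a tissue's 2 pool pairs (bars) for the 5 genes, with the signs of the 647 arrays turned on the left and as deposited on the right. The b2m points lie at or below 0 in both panels, psmb8b lies above 0 in liver and below 0 in muscle in both panels, and psmb9a in muscle changes side. For psmb9a and tap1 the liver has 1 point, that of replicate 2.

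The immunoproteasome subunit psmb8b, the chymotrypsin-like catalytic subunit known as LMP7 in mammals, had small ratios in liver. Its deposited values there were 0.30 and 0.17 on the 555 arrays and -0.15 and -0.07 on the 647 arrays. They change sign with the dye, so all 4 turned liver values were positive. This held for 1 of 3 members, against 26.2% of all liver probes. The turned mean was 0.17 ± 0.07 (SD, n = 2 pool pairs), with an adjusted p of 0.404 in limma, and 42.8% of probes had a smaller one.

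In muscle psmb8b had -0.67 and -0.17 on the 555 arrays and -0.14 in both replicates on the 647 arrays. The sign did not change with the dye, so here the values had 1 sign as deposited, as for 1 of 5 members, against 10.6% of all muscle probes. Turned, 0 of 5 members had 1 sign on all 4 muscle arrays, against 17.2% of all probes, and as deposited 0 of 3 members had it in liver, against 9.61%. The muscle mean of psmb8b was -0.14 ± 0.18 turned and -0.28 ± 0.18 as deposited, both with an adjusted p of 1. On the 555 array of replicate 1, 2.71% of probes were below its -0.67, while between 20.4 and 24.9% of probes were lower on the other 3 arrays.

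Set against each other, the liver pool pairs of psmb8b were positive and the muscle pool pairs negative under both readings. Turned, they were 0.22 and 0.12 in liver against -0.27 and -0.01 in muscle. As deposited they were 0.07 and 0.05 in liver against -0.40 and -0.15 in muscle. The liver minus muscle difference was 0.31 turned (95% interval -0.15 to 0.77) and 0.34 as deposited (-0.11 to 0.80), with adjusted p of 0.660 and 0.903 in limma. Of all probes with complete values, 0.768% had this arrangement of signs in either direction, and 1 of 3 members had it. The arrangement was found in these same values, so its share does not test it. The 555 array had the larger deviation in each of the 4 pool pairs of psmb8b, as for b2m, where the arrays of 1 pair were nearly equal. That both readings give the same signs therefore rests on the 555 arrays. Turned, all 4 liver array values were positive, but the muscle arrays had both signs. As deposited, all 4 muscle array values were negative, but the liver arrays had both signs.

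The probe of psmb9a, the subunit called LMP2 in mammals, had no value on either liver array of replicate 1. In liver replicate 2 it had 1.46 on the 555 array, above 98.9% of the probes there, and -1.16 on the 647 array, above 3.84% of them. The pool pair was therefore 1.31 turned and 0.15 as deposited, and with 1 complete pool pair psmb9a was left out of the liver test. The negative control spots, which carry no trout sequence, had 0.92 and -2.81 on the same arrays, and the dark corner control spots 0.71 and -0.12. A change of sign between these 2 arrays was also found in 53.0% of all probes. No intensities were used here, and whether psmb9a lay near the blank signal was not tested.

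In muscle psmb9a had -0.0058 and 0.0072 on the 555 arrays, and -0.71 and -0.20 on the 647 arrays. Its deviation thus lay on the arrays of 1 dye orientation, and the sign of the mean depends on the reading. The mean was 0.23 ± 0.18 turned and -0.23 ± 0.19 as deposited (SD, n = 2 pool pairs), with an adjusted p of 1 in limma under both.

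Of the transporter chains, tap1 had liver values of -0.46 and -0.63 on the 555 arrays and 1.20 on the 647 array of replicate 2. The 647 array of replicate 1 had no value. All 3 turned liver values were thus negative, and the complete pool pair was -0.92 turned and 0.29 as deposited. With replicate 1 taken from its single array, the turned liver mean was -0.69 with an unadjusted p of 0.00953 and an adjusted p of 0.192 in limma. In that fit 19.3% of all probes had an unadjusted p under 0.05, as had 1 of 4 members, and a dye effect is not averaged out in its replicate 1. That fit was run with signs turned only. As deposited, the single array of replicate 1 (-0.46) and the pool pair of replicate 2 (0.29) had opposite signs. In muscle tap1 stayed near 0, with -0.25 and 0.06 on the 555 arrays and -0.10 and 0.07 on the 647 arrays. The muscle mean was -0.04 ± 0.05 turned (95% interval -0.36 to 0.28) and -0.05 ± 0.17 as deposited.

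Its partner tap2b had mostly positive values. In liver they were 0.24 and 0.47 on the 555 arrays and -0.20 and 0.53 on the 647 arrays. In muscle they were 0.35 and 0.54 on the 555 arrays and -0.25 and 0.13 on the 647 arrays. The 647 arrays of replicate 1, in liver and in muscle, held its only negative values. The muscle mean was 0.25 ± 0.07 turned, a 1.19-fold ratio with a 95% interval of -0.05 to 0.55, and 0.19 ± 0.20 as deposited, each with an adjusted p of 1 in limma. The liver mean was 0.10 ± 0.18 turned and 0.26 ± 0.34 as deposited, with adjusted p of 0.609 and 0.583. The liver minus muscle difference was -0.15 turned and 0.07 as deposited, neither past the threshold (adjusted p 0.776 and 0.978 in limma).

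Whether the genes moved together was examined by the signs of each pair of genes on the same array, which do not depend on the reading. Over the 10 pairs of members, 31 of 69 comparisons had the same sign, or 44.9%, where all pairs of probes on these arrays would give 50.5%. In this count the members did not share a direction more often than probes at large. The 69 comparisons reuse the same genes and count both arrays of a pool pair, so they are not independent. In the order of the 555 and 647 arrays of replicate 1 and then of replicate 2, the members split 2 positive to 2 negative, 1 to 2, 3 to 2 and 2 to 3 in liver, and 1 to 4, 1 to 4, 3 to 2 and 2 to 3 in muscle. In muscle replicate 1 the negative members were not the same on both arrays, since tap2b was positive on one and b2m on the other.

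On the 555 muscle arrays psmb9a lay next to 0 (-0.0058 and 0.0072), so its sign there carries little weight. The subunits psmb8b and psmb9a had the same sign on 5 of 6 arrays, a count for which no share of all probes was computed. The transporter chains tap1 and tap2b had it on 4 of 7, and psmb8b and tap1 on 2 of 7. The transporter chain tap2b and the light chain b2m had opposite signs on all 8 arrays, a pattern picked from 10 pairs after its values were seen. Of all other probes with complete values, 1.93% had the sign opposite to b2m on all 8 arrays.

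Both arrays of a pool pair had opposite signs as deposited for 3 of 3 members in liver replicate 1 and 3 of 5 in liver replicate 2. In muscle this held for 2 of 5 in replicate 1 and 1 of 5 in replicate 2. Over all probes the shares were 65.0%, 53.0%, 53.4% and 48.5% in the same order. A difference between the pools that is deposited in a fixed dye direction changes its sign between these arrays, and 9 of 18 members' pool pairs did so.

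The likeness of other named genes was measured as the root mean square difference of the deposited log2 ratios over the arrays on which the member had a value, which is also the same under both readings. Of 72 to 77 genes compared, those nearest to b2m over 8 arrays were the chaperone gene hsp90b (0.27) and rtn4 (0.30), with the sign of b2m on 7 of 8 arrays each. The nearest to tap2b were the myosin light chain gene mlc-2 (0.19) and ifng (0.34), with its sign on 7 and 5 of 8 arrays. The values of ifng ran only from -0.19 to 0.11. The mlc-2 value averages its probes, whose turned liver means ran from -0.81 to 0.22. Nearest to psmb8b were dj-1 (0.19) and fxyd5b (0.24), with its sign on 6 and 7 of 8 arrays. Over 7 arrays igfbp6 (0.30) and mx2 (0.35) were nearest to tap1, with its sign on 5 arrays each. Over 6 arrays myod2 (0.40) and gnrh (0.57) were nearest to psmb9a, with its sign on 4 and 3 arrays. Between members the smallest difference was 0.51, of psmb8b and tap2b. Genes with flat ratios are near every small pattern by this measure.

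**Figure D3:**
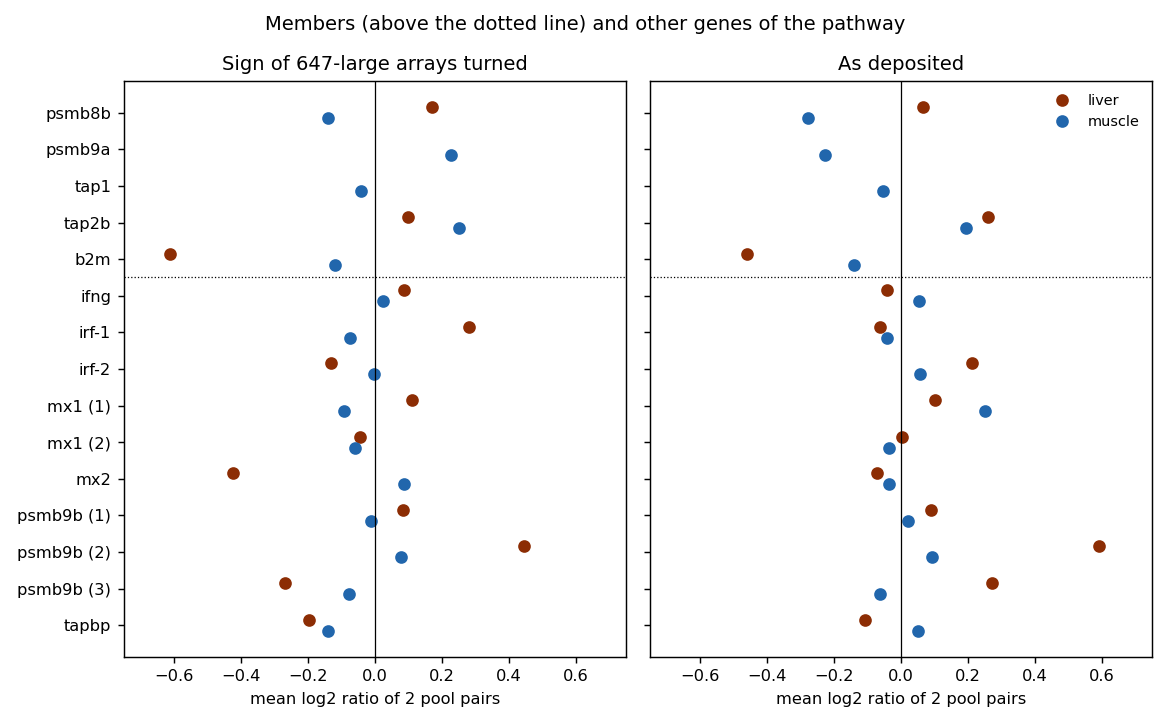
Mean log2 ratio of the 2 pool pairs in liver (brown) and muscle (blue) for the 5 members, above the dotted line, and for the 10 other probes of the pathway list, with signs turned on the left and as deposited on the right. Numbers in brackets tell probes of a gene apart. The means of b2m in liver, -0.61 and -0.46, lie farthest to the left in each panel.

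The rest of the pathway was represented by 7 of 76 listed symbols with 10 probes: psmb9b, tapbp, ifng, irf-1, irf-2, mx1 and mx2. None passed an adjusted p of 0.05 in limma in either tissue under either reading, and 2 of 10 had an unadjusted p under 0.05 in liver with signs turned, against 20.4% of all probes. These were the interferon-induced antiviral gene mx2, at -0.42, and the interferon regulatory factor irf-1, at 0.28, which lie on opposite sides. As deposited both were negative in liver, at -0.07 and -0.06, so that contrast depends on the reading. Turned, 5 probes were positive and 5 negative in liver and 3 and 7 in muscle. As deposited 6 were positive and 4 negative in both tissues. The medians of the list were 0.02 and -0.04 turned and 0.05 and 0.04 as deposited, in liver and muscle in that order, beside medians of all probes of 0.04 and 0.0096 turned and 0.03 and 0.0026 as deposited. Of class I heavy chains, class II genes and constitutive proteasome subunits 0 symbols were on the annotation.

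A further copy of the subunit gene, psmb9b, had 3 probes that differed from each other in liver, with turned means of 0.08, 0.45 and -0.27. As deposited the means were 0.09, 0.59 and 0.27, all 3 positive, so the difference in sign depends on the reading. The highest mean rests on replicate 1, with 2.14 on its 555 array, against -0.07 on that of replicate 2. In muscle the turned means were -0.01, 0.08 and -0.08. Tapasin, tapbp, had -0.20 ± 0.26 in liver and -0.14 ± 0.12 in muscle turned, and -0.11 ± 0.08 and 0.05 ± 0.08 as deposited. The inducer ifng, whose protein is interferon gamma, had 0.09 in liver and 0.02 in muscle turned, and -0.04 and 0.05 as deposited. A second transporter copy, tap2a1, and the interferon gene ifna2 were not on the list and were added from the annotation. One of the 2 tap2a1 probes had turned liver pool pairs of 0.55 and -0.75, and the other had no complete tissue. The ifna2 probe had 0.20 in liver and 0.08 in muscle turned, and 0.04 and 0.02 as deposited. It passed no adjusted p of 0.05 in limma in either tissue.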

How the data were processed

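Trizol extraction of total RNA was followed by magnetic isolation of mRNA and direct labelling of the cDNA (Alexa Fluor 555 or 647), per the labels' protocols. The deposited values were read as log2 ratios of both channels, from their fall on ratios of 3 decimals (tolerance 0.05 thousandths). Scanner software, background correction, normalization and the reason for empty cells are not given in the sources used here. Of 43,663 rows, 60 control spots were left out. Liver arrays lacked a value for 2296 to 3035 probes and muscle arrays for 428 to 845. Symbols came from an old platform annotation. Of the members' accessions 0 matched the RefSeq gene table (assembly USDA_OmykA_1.1), so no position or sequence is given.

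The 2 arrays of a pool pair were averaged into 1 replicate. Probes with values on all 4 arrays of a tissue went into a limma 3.58.1 fit under R 4.3.3. It had tissue as group, no intercept and empirical Bayes with 2.21 prior degrees of freedom. Residual degrees of freedom were 2 for probes complete in both tissues. They were fewer for psmb9a and tap1, which entered with muscle values alone. Benjamini-Hochberg adjustment ran over all probes tested. The code was tested on simulated data. Named genes were the members, the listed pathway genes, and the 2 named genes nearest to each member. Alternatives were the values as deposited, separate tissue fits, centring, scaling, a random block, incomplete probes, a replicate block, and leaving out pool pairs. One further alternative, on the widest liver array, was chosen after seeing the data. Members and lists were chosen with earlier results of these data known. The number of pool pairs and the unknown signal over background limit the precision.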

Additional observations from a re-analysis of the deposited data

Results flagged for a closer look

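The psmb8b probe had positive pool pairs in liver and negative ones in muscle, so every pool pair of one tissue lay opposite to those of the other. The liver minus muscle difference was 0.31 with signs turned and 0.34 as deposited. Neither passed the test of the difference (adjusted p 0.660 and 0.903 in limma, n = 2 pool pairs per tissue), and one muscle pool pair was -0.01 with signs turned. In each of the 4 pool pairs the array with the large fish in the 555 dye had the larger deviation. That both readings give the same signs therefore rests on those arrays.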

How the results depend on the processing

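Of 121 recomputed values of the 11 member ratios, 54 equal the complete fit's ratio by construction (separate tissue fits, the random block, incomplete probes, the replicate block, and changes to the other tissue), so only their p could change. Of the other 67, 59 kept their direction and their side of the threshold, 5 changed sign and 3 passed the threshold, all 3 of b2m. Centring and scaling changed no sign or call of a member. Centring took the turned liver means of psmb8b, tap2b and b2m to 0.09, 0.02 and -0.69. The replicate block was fitted only to the 3 liver minus muscle differences. As deposited, psmb9a in muscle was -0.23 and the liver minus muscle difference of tap2b was 0.068. Each member had 1 probe, so no mean over probes was run. Without single pool pairs, tap2b in liver ranged from -0.027 to 0.223 and the b2m difference from -1.04 to 0.052. With the 555 array (large fish in the 555 dye) alone standing for liver replicate 2, the tap2b difference was 0.10 and 1835 liver probes passed, against 0 in the complete fit. The random block, with a correlation of -0.15 between arrays of a pair, passed 2478 liver probes. It counts both arrays of a pool pair, which hold the same RNA, and a negative correlation does not lower their weight. Its p-values therefore do not rest on independent pools alone. Leaving out pool pairs passed 0 to 6765 liver probes, 0 to 3 muscle probes and 0 to 3667 differences. Muscle fitted alone passed 3 probes and scaling 1, none of them members. With the replicate block 0 differences passed, as without it, and 2139 had an unadjusted p under 0.05, against 2677. The same-numbered liver and muscle deviations correlated with r = 0.07 across probes. With 1 difference between replicates per tissue, this cannot show whether the numbers pair the tissues. The complete fit did not pair them. With liver fitted alone, 2646 probes had an unadjusted p under 0.05, against 7346 with the spread shared with muscle, so liver p-values rest on that sharing. In muscle it was the reverse, with 5046 such probes fitted alone against 1885 with the spread shared. Liver intervals of the members were wider alone, for b2m -1.64 to 0.41 against -1.39 to 0.17 shared. Muscle intervals of the members were narrower alone, for b2m -0.36 to 0.12 against -0.90 to 0.66 shared. The tap2b interval was 0.04 to 0.46 alone, with an unadjusted p of 0.0287 and an adjusted p of 0.342 in limma. No other member had an unadjusted p under 0.05 in muscle fitted alone, where 5046 of 41,652 probes had such a p. The separate tissue fits were run with signs turned only.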
